A study of Mus musculus with 6 samples.

Results

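The immunity-related GTPases (IRG) and guanylate-binding proteins (GBP) are families of large GTPases that cells make in response to interferon-gamma. The 9 genes described here, the IRG genes Irgm1, Irgm2 and Igtp and the GBP genes Gbp2, Gbp3, Gbp4, Gbp5, Gbp6 and Gbp7, were taken by symbol from a count table of 23412 rows, and all 9 were found. The RNA came from splenic germinal centre B cells, sorted as positive for B220, GL7 and Fas on day 10 after intraperitoneal injection of sheep red blood cells. Control mice carried the Cg1-cre(+/-) allele. In this allele Cre recombinase is made from the locus of the gamma 1 heavy chain, which is active in B cells that take part in a germinal centre response. DAF-TM mice carried the same Cre allele and DAF-TM(fl/fl), a Cre-dependent cassette at the Rosa26 locus for DAF, a membrane protein that limits complement activation. Controls were +/+ for the cassette, per the labels' protocols. Age and sex are not given in the labels, nor whether RNA of several mice was pooled.

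Interferon-gamma binds a receptor of the chains Ifngr1 and Ifngr2, which signals through the kinases Jak1 and Jak2. Interferon-gamma activated sites (GAS) and interferon-stimulated response elements (ISRE), at the latter of which the induced factor Irf1 acts, control IRG and GBP genes. The products are known mainly from infected macrophages and fibroblasts, where they gather on vacuoles that hold parasites or bacteria. Irgm1, Irgm2 and Igtp are the regulatory IRG proteins, which sit on the cell's own membranes and hold effector IRG proteins such as Iigp1, Tgtp2 and Gm12250 inactive there. GBP proteins assemble on exposed microbial or vacuolar membranes and help to activate inflammasomes.

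The promoters of the members are shown first because the 9 genes share an inducer. RefSeq start sites (GRCm38.p6) were at hand for 7 members, Irgm1, Irgm2, Igtp, Gbp2, Gbp3, Gbp5 and Gbp7. Windows of 300 bases, from 250 before to 50 after each start, were searched on both strands for a GAS motif, TTCNNNGAA, and an ISRE-like motif, GAAANNGAAA or its reverse complement TTTCNNTTTC. The ISRE-like motif was found in all 7 genes and the GAS motif in 4, Irgm2, Igtp, Gbp5 and Gbp7. A gene was counted if any of its windows held the motif. Gbp3 had another RefSeq start, whose window held neither motif. Of 32851 such windows over 27025 genes, counted per window rather than per gene, 3.44% held the ISRE-like and 8.3% the GAS motif. A match describes letters in a window and does not show that a factor binds there. The 250 bases before the start of Irgm1, the member called higher, of the neighbours Igtp and Irgm2, and of Gbp7 are given 5' to 3' on the gene's strand, with both kinds of motif in capitals.

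Irgm1 (chr11:48871421-48871670, minus strand): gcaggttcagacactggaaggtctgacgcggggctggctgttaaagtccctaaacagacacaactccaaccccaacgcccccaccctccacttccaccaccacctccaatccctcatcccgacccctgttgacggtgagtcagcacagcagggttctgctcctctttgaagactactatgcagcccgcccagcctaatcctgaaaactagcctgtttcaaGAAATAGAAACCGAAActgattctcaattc
Igtp (chr11:58199306-58199555, plus strand): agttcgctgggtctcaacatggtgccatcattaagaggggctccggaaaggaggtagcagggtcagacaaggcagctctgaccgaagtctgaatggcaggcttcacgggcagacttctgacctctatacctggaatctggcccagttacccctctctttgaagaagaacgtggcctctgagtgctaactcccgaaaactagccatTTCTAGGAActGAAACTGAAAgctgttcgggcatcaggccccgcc
Irgm2 (chr11:58214727-58214976, plus strand): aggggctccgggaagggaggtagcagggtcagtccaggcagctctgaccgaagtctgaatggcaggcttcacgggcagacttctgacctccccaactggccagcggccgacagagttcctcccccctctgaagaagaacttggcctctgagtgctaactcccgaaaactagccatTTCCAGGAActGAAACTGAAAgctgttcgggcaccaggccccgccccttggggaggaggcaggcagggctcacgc
Gbp7 (chr3:142530086-142530335, plus strand): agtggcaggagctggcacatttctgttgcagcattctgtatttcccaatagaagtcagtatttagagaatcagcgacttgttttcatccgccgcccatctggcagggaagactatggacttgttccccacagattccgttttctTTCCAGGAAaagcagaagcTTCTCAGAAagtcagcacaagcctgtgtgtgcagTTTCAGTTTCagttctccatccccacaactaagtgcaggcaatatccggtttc

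In Irgm1 a pair of overlapping ISRE-like motifs lay at bases -30 to -21 and -24 to -15 from the start. Igtp and Irgm2 each had a GAS motif with an ISRE-like motif close behind it, at -45 to -37 and -34 to -25 in Igtp and at -75 to -67 and -64 to -55 in Irgm2. These windows also shared an identical run of 55 bases upstream of the motifs. Gbp7 had 2 GAS motifs, at -106 to -98 and -87 to -79, and an ISRE-like motif at -53 to -44. All positions count from the RefSeq start. For Irgm2 and Gbp7 the 50 bases after that start were not found whole in a transcript of the GENCODE annotation, so their positions are less certain. For Irgm1 and Igtp they were.

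**Figure D1:**
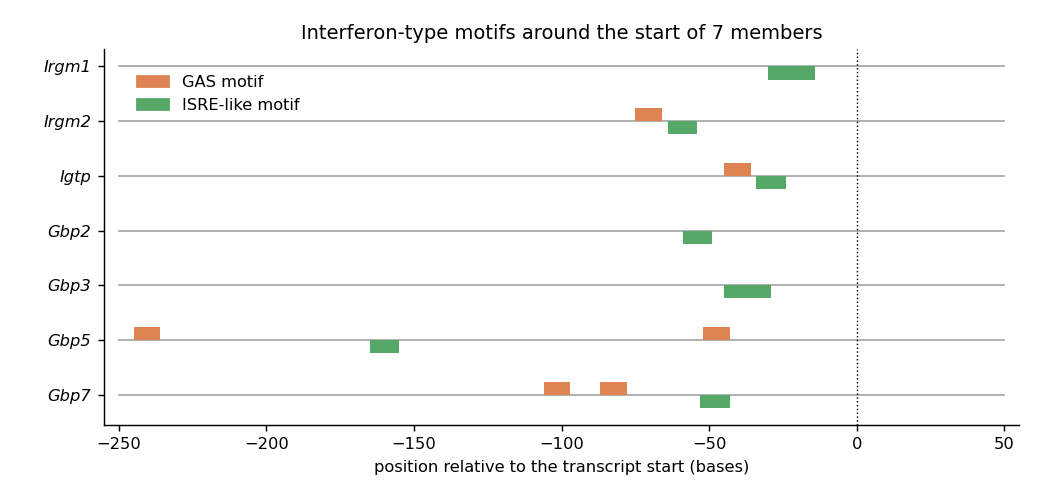
Positions of GAS and ISRE-like motif matches (coloured boxes) from 250 bases before to 50 bases after the start of 7 members, in bases from the start. All matches lie upstream of the start, and the GAS match of Gbp5 at -245 to -237 is the farthest from it. The other Gbp3 start, without a match, is not drawn.

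Each group was deposited with 3 replicates. DAF-TM replicate 3 repeats replicate 2 in each of the 23412 rows, less than sampling noise would allow, and the pair entered once, as DAF-TM library 2. The comparison therefore has 3 control and 2 DAF-TM libraries. Their totals ran from 7257339 to 12783965 counts. Cd55, the gene of mouse DAF, stood at 23.5 to 34.4 normalised CPM (the count scaled to library size, with TMM factors between libraries) in the controls but at 713 (library 1) and 726 (library 2) with DAF-TM. The libraries differed in sex-linked RNA within a group. Xist stood at 744, 2.42 and 2.89 CPM in control libraries 1 to 3, and Y-linked genes at 0.104, 653 and 483. DAF-TM library 1 held both Xist (291 CPM) and Y-linked RNA (284 CPM), and DAF-TM library 2 held Xist (797 CPM) and no Y-linked count. Germinal centre B cell markers were high in all libraries, with Bcl6 at 214 to 313 normalised CPM. In bulk RNA, a change in the share of cells of a type and a change in RNA per cell cannot be told apart.

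The transcripts of the members were detected in every library, and none was at 0. To compare genes, the level was divided by the length of the gene's coding transcripts, as normalised CPM per kb, and averaged over the 5 libraries. Gbp4 was the most abundant at 17.6 ± 5.08 normalised CPM per kb (SD, n = 5 libraries) and Gbp6 the least at 0.689 ± 0.33, a 25.5-fold span. Between them came Gbp3 (12.6 ± 2.04), Irgm1 (11.8 ± 5.52), Igtp (11.6 ± 3.44), Irgm2 (5.22 ± 1.55), Gbp2 (4.62 ± 1.43), Gbp7 (1.53 ± 0.621) and Gbp5 (1.32 ± 0.458). The order fell into 3 steps whose ranges did not meet. These were Gbp4, Gbp3, Irgm1 and Igtp, then Irgm2 and Gbp2, and then Gbp7, Gbp5 and Gbp6. Neighbours within a step had overlapping ranges, and Irgm1 exceeded Igtp in only 2 of the 5 libraries. The steps depend on the lengths used, and the annotation behind the counts is not known. Before division by 2022 and 3690 bases, Igtp and Irgm2 had control means of 20.6 and 17.7 normalised CPM.

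Irgm1 was the member that rose in the DAF-TM libraries, and nearly all of that rise lay in DAF-TM library 1. Of the 9 members, all of which entered the test, 1 rose, none fell and 8 did not pass (edgeR quasi-likelihood test over 18767 genes, Benjamini-Hochberg adjusted p under 0.05). Over all genes tested the share called was 0.41%, with 0.373% higher and 0.0373% lower. All 9 log2 fold changes were positive with a median of 0.41, whereas 53.87% of all genes were positive with a median of 0.03. The comparison asks how germinal centre B cells differ when DAF is kept high on them.

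Irgm1 (chr11:48865245-48871420) encodes the regulatory IRG protein of the Golgi, mitochondria and lysosomes, whose loss impairs blood cell formation and control of bacteria. It stood at 20.9, 19.1 and 21.4 normalised CPM in control libraries 1 to 3 and at 49.6 and 24.5 in DAF-TM libraries 1 and 2. The controls lay close together, DAF-TM library 1 was more than double any of them, and DAF-TM library 2 was just above the highest control. The means were 20.5 ± 1.21 (SD, n = 3) and 37.1 ± 17.7 (SD, n = 2), a 1.81-fold rise. The log2 fold change was 0.86 (SE 0.19, edgeR adjusted p = 0.00331). This SE draws mostly on variance shared across genes, and the 2 DAF-TM libraries of Irgm1 lay 2.02-fold apart. Leaving out DAF-TM library 1 gave a log2 fold change of 0.26 (adjusted p = 0.682), and leaving out library 2 gave 1.28 (adjusted p = 7.0e-05). The call was also lost without control library 3 (0.172), with DESeq2 (0.322) and with limma-voom (0.182), at log2 fold changes from 0.77 to 0.90.

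Igtp and Irgm2 lie side by side on chromosome 11 (58199556 to 58207592 and 58214977 to 58222783). Igtp, also named Irgm3, is the regulatory IRG protein of the endoplasmic reticulum and lipid droplets. Its values were 21.0, 21.8 and 19.0 normalised CPM in control libraries 1 to 3, 35.6 in DAF-TM library 1 and 19.5 in DAF-TM library 2. DAF-TM library 1 was above all controls and DAF-TM library 2 lay within their range, so the groups overlapped and Igtp did not pass (log2 fold change 0.41, SE 0.20, adjusted p = 0.829). Irgm2, a regulatory IRG protein of the Golgi, stood at 21.0, 17.1 and 15.1 in the controls and at 28.5 and 14.6 in DAF-TM libraries 1 and 2. Here DAF-TM library 2 was below every control, and the log2 fold change of 0.28 (SE 0.21, adjusted p = 0.945) turned to -0.29 without DAF-TM library 1. That of Igtp turned to -0.09. Of the 100-base stretches of Igtp transcripts 5.16% also occur in Irgm2, where reads could be counted for either gene.

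Among the GBP genes, Gbp7 was the member whose DAF-TM libraries agreed. Gbp7 lies in a cluster on chromosome 3 (142530336 to 142550151) and is known from macrophages, where it takes part in assembling the NADPH oxidase against bacteria. Control libraries 1 to 3 held it at 6.25, 5.52 and 6.41 normalised CPM (59, 65 and 47 counts) and DAF-TM libraries 1 and 2 at 12.4 each (137 and 147 counts). Both DAF-TM libraries were about double every control and the groups did not overlap. The log2 fold change was 1.04 (SE 0.29), and it missed the threshold over all genes (edgeR adjusted p = 0.0876). It stood between 0.97 and 1.11 in all 12 alternative fits, none of which called it. Of Gbp7 transcript stretches of 100 bases, 9.59% also occur in the model Gm43802, which has no row of its own in the table.

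Gbp7 was 1 of 2 members whose groups did not overlap, beside Irgm1. Both DAF-TM libraries lay above all controls in 11.3% of the genes tested and below all controls in 9.02%, where no member was. Low genes as a whole were shifted in DAF-TM library 2. Among the 8707 genes tested with a mean of 1 to 10 normalised CPM, the median difference from the control mean on the scale of log2(normalised CPM + 0.5) was 0.39 in DAF-TM library 2 and 0.00 in library 1, and 17.51% had no overlap with DAF-TM higher. In that band lie 3 members. In DAF-TM library 2 Gbp7 differed from the control mean by 0.98, Gbp5 by 0.21 and Gbp6 by -0.06.

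Gbp5 and Gbp6 were low throughout. Gbp5, a prenylated GBP linked to inflammasome assembly, stood at 3.39, 2.55 and 4.09 normalised CPM in the controls and at 6.31 and 3.89 in DAF-TM libraries 1 and 2. Its value in DAF-TM library 1 was above every control, and that in library 2 was below control library 3. The log2 fold change was 0.62 (SE 0.39, adjusted p = 0.944). Gbp6, in the chromosome 5 cluster, had 14, 11 and 15 counts in the controls and 35 and 16 in DAF-TM libraries 1 and 2 (log2 fold change 0.63, SE 0.51, adjusted p = 0.947). With so few counts its change could not be resolved, and it turned to -0.10 without DAF-TM library 1. Of its 100-base transcript stretches 82.9% occur in another gene model, Gm43302, and 44.2% in Gbp10, so its counts are uncertain.

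Gbp2, Gbp3 and Gbp4 were the better measured GBP genes and did not pass. Gbp2 is a prenylated GBP that is recruited to parasite vacuoles. It stood at 11.4, 11.5 and 9.14 normalised CPM in control libraries 1 to 3, at 17.6 in DAF-TM library 1 and at 8.46 in DAF-TM library 2. DAF-TM library 1 was the highest library and library 2 the lowest, around a log2 fold change of 0.27 (SE 0.26, adjusted p = 0.949) that was -0.35 without library 1. Gbp3 lies between Gbp7 and Gbp2 on chromosome 3. Control libraries 1 to 3 held it at 33.7, 43.2 and 31.6, DAF-TM library 1 at 46.4 and library 2 at 37.4. The groups overlapped (log2 fold change 0.21, SE 0.18, adjusted p = 0.949).

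Gbp4, described as a brake on the interferon regulatory factor Irf7, lies on chromosome 5 (105115767 to 105139586). It stood at 66.5, 102 and 62.5 normalised CPM in control libraries 1 to 3 and at 108 and 60.6 in DAF-TM libraries 1 and 2. Control library 2 and DAF-TM library 1 were high and the other libraries were level, so the split crossed the groups (log2 fold change 0.13, SE 0.19, adjusted p = 0.963). It turned to -0.36 without DAF-TM library 1. Gbp9, its neighbour in the cluster, was highest in control library 2, at 129 normalised CPM against 72.7 and 70.8 in control libraries 1 and 3. DAF-TM libraries 1 and 2 held Gbp9 at 88.8 and 64.7. Shared 100-base stretches made up 0.922% of Gbp4 transcripts for Gbp9.

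**Figure D2:**
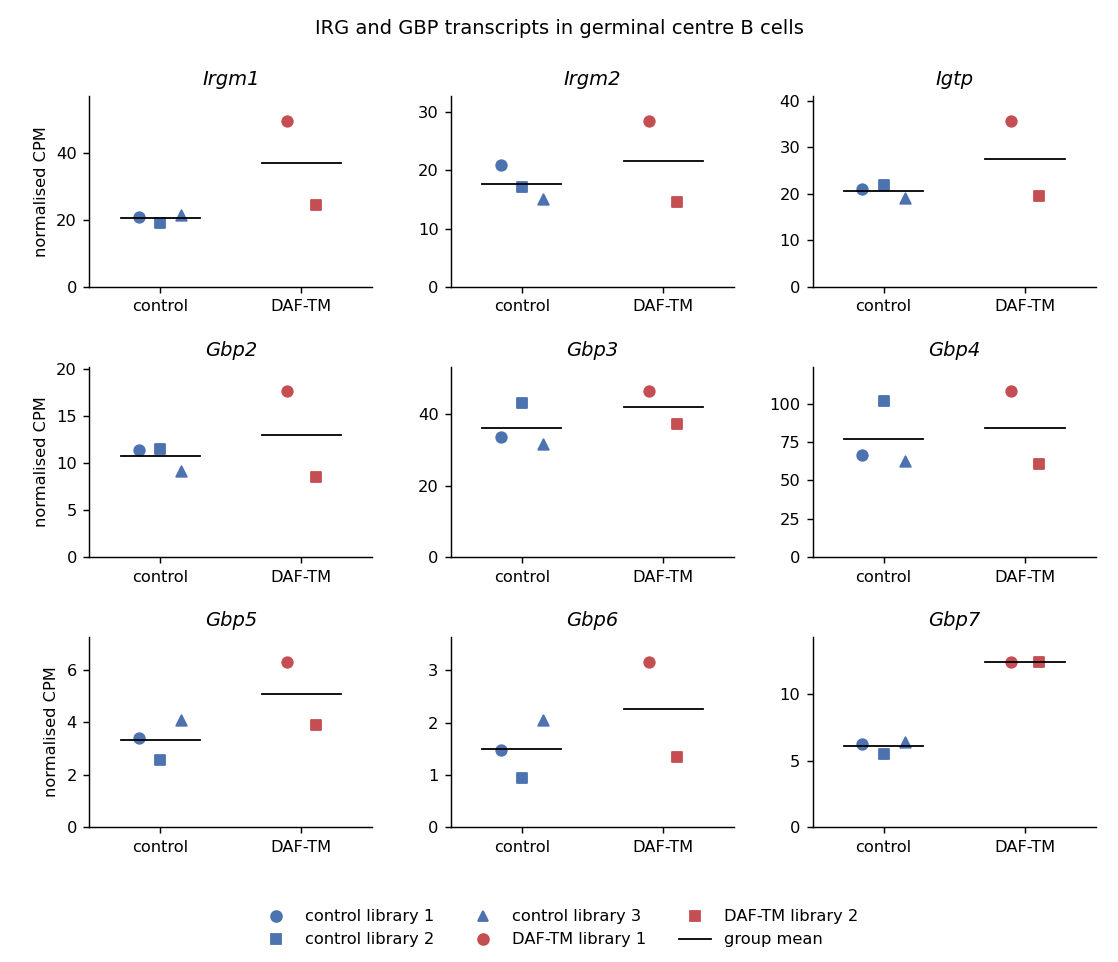
Normalised CPM (linear axes from 0) of the 9 members in each library, with controls in blue, DAF-TM in red and group means as lines. DAF-TM library 1 (red circle) is the highest library in 8 of 9 genes, and only Gbp7 has both DAF-TM libraries at the same level.

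Across the members, the high library was DAF-TM library 1. DAF-TM library 1 was above all 3 controls for 9 of 9 members, against 24.5% of all genes tested. It was the highest of the 5 libraries for 8 of 9, against 17.9%, and DAF-TM library 2 was the highest for 1, Gbp7, against 28.9%. DAF-TM library 2 was above all controls for 2 members and below all controls for 3, against 33.6% and 27.3% of all genes. In DAF-TM library 1 the ratio to the control mean ran from 1.28 for Gbp3 to 2.42 for Irgm1, and in DAF-TM library 2 from 0.787 for Gbp4 to 2.05 for Gbp7. Summed over the 3 IRG members, the libraries stood at 62.8, 58.0 and 55.5 normalised CPM in the controls and at 114 and 58.6 in DAF-TM libraries 1 and 2. The 6 GBP members summed to 123, 166 and 116 in the controls and to 194 and 124.

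The fits that left out 1 DAF-TM library differed for most members. Without DAF-TM library 2, 8 of 9 members had an unadjusted p under 0.05, against 4.79% of all genes, and Irgm1 alone was called, against 0.616%. Without DAF-TM library 1, 4 of 9 members kept a positive sign and 1, Gbp7, had an unadjusted p under 0.05 (0.00367), against 9.03% of all genes. No member was called in that fit, against 0.0717% of all genes. In both fits the single DAF-TM library was assumed to vary like the controls. With all 5 libraries, 3 members had an unadjusted p under 0.05, Irgm1, Gbp7 and Igtp, all higher, against 5.74% of all genes in either direction and 3.68% higher. DAF-TM library 1 is also the library with both Xist and Y-linked RNA, and the part of this in the result was not tested.

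**Figure D3:**
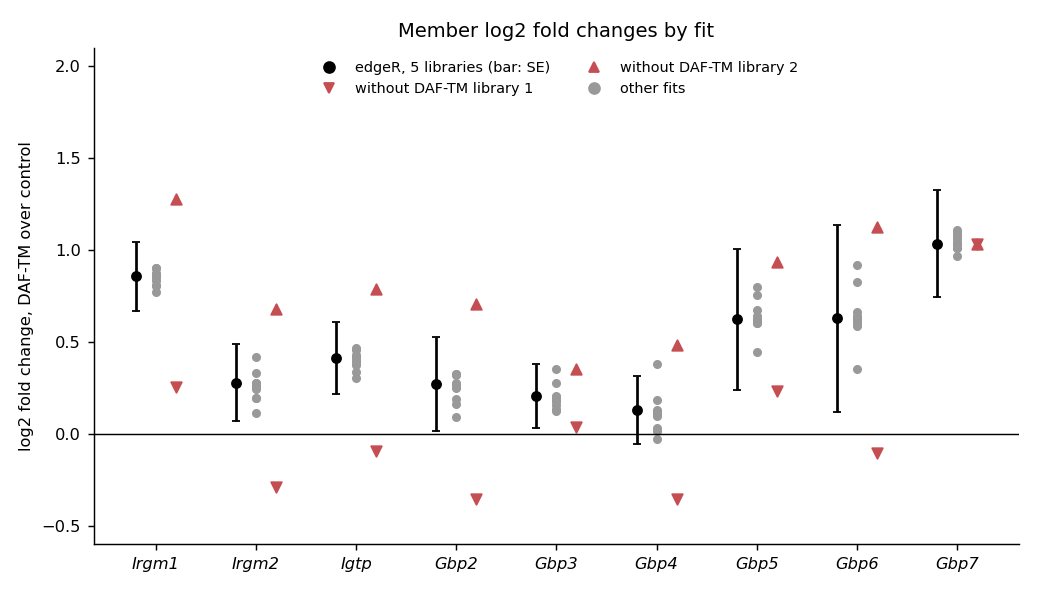
Log2 fold change (DAF-TM over control) of each member in the edgeR fit of 5 libraries (black, bar for the SE), without each DAF-TM library (red triangles) and in 10 other fits (grey). Leaving out DAF-TM library 1 moves every member but Gbp7 down, and 5 of 9 fall below 0.

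The other IRG and GBP genes were read from the same fit. Of 18 in the list 17 had a row and 15 entered the test, of which 1 rose, none fell and 14 did not pass. Of the 15, 13 were positive, with a median log2 fold change of 0.40. Between 1 and 10 normalised CPM lie 12 of the 15. In that band 75.11% of all genes tested were positive, with a median of 0.23. Tgtp2, an effector IRG GTPase also called Irgb6, rose 3.03-fold (log2 fold change 1.60, SE 0.41, adjusted p = 0.0243). Its levels were 2.44, 1.70 and 1.64 normalised CPM in the controls and 8.03 and 3.72 in DAF-TM libraries 1 and 2. The groups did not overlap, but leaving out DAF-TM library 1 gave 0.94 (adjusted p = 0.5597). The call was also lost without any 1 control (0.1125 to 0.312), with upper-quartile factors (0.196), with a replicate block (0.711), with DESeq2 (0.219) and with limma-voom (0.192). Tgtp1, its near copy, stood at 0.847, 1.36 and 1.23 in the controls and at 3.70 and 1.27 in DAF-TM libraries 1 and 2. Tgtp1 did not pass (adjusted p = 0.829). Shared transcript stretches were not counted for this pair, so the split of reads between Tgtp1 and Tgtp2 is uncertain.

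The remaining effector IRG genes did not pass. Iigp1, or Irga6, stood at 1.48, 1.61 and 1.91 normalised CPM in the controls and at 4.06 and 2.03 in DAF-TM libraries 1 and 2 (log2 fold change 0.87, SE 0.47). Ifi47, or Irgd, the most abundant of them, stood at 57.5, 72.1 and 54.7 in the controls and at 86.3 and 61.1, a log2 fold change of 0.26 (SE 0.17). Gm12250, or Irgb10, had 9.004, 6.54 and 8.87 in the controls and 9.74 and 10.3. Iigp1 and Ifi47 were highest in DAF-TM library 1, as 8 of the 9 members were, while Gm12250 was a little higher in library 2.

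The GBP genes outside the 9 showed no common profile. Gbp8 stood at 8.26, 6.28 and 5.87 normalised CPM in the controls and at 15.7 and 10.99 in DAF-TM libraries 1 and 2, with no overlap (log2 fold change 0.97, SE 0.28, adjusted p = 0.104). Gbp2b, listed in the table as Gbp1, was high in DAF-TM library 2 alone, at 5.67 against 2.43 in library 1 and 1.44 to 3.18 in the controls. Gbp9 had a negative log2 fold change of -0.25 (SE 0.18, adjusted p = 0.945). Gbp11 stood at 0.934 to 2.18 in the controls and at 2.25 and 2.79 in the DAF-TM libraries, and Gbp10 at 0.741 to 1.36 and at 0.541 and 1.52, where counts were too few to resolve a change.

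**Figure D4:**
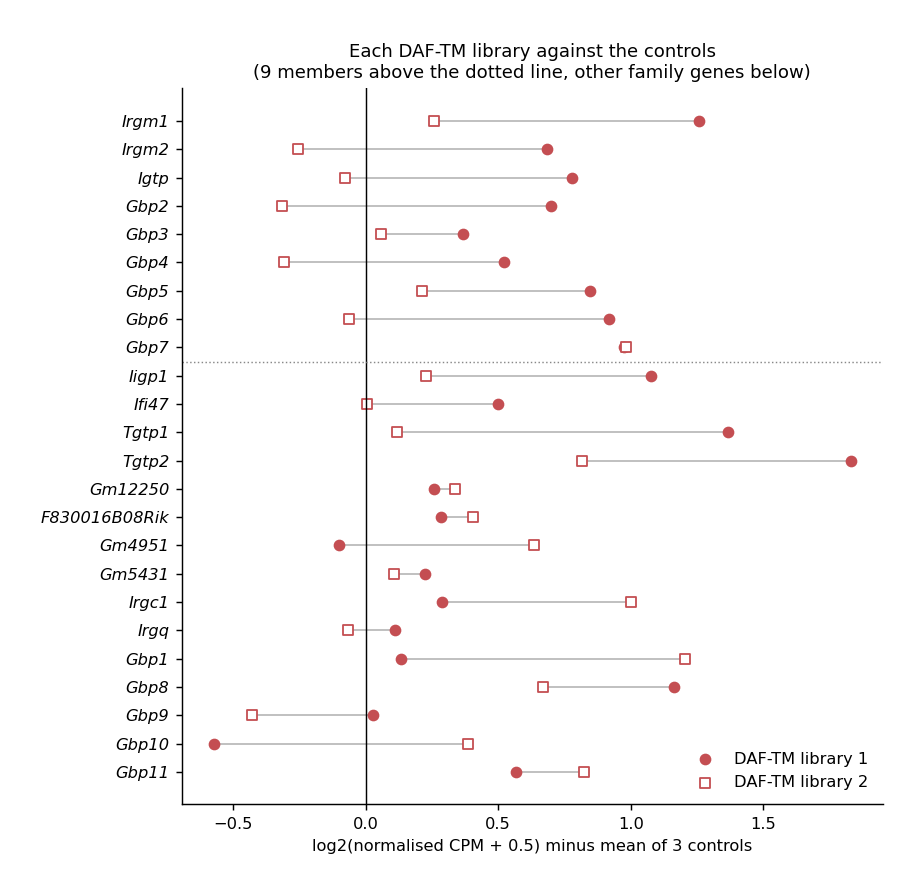
Difference of each DAF-TM library from the control mean, in log2(normalised CPM + 0.5), for the 9 members (above the dotted line) and 15 other IRG and GBP genes. For 8 members library 1 (filled) lies to the right of library 2 (open), while Gbp7 has both at about 0.98.

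The upstream pathway did not pass at any step, and Irf1 was highest in DAF-TM library 1. Of 16 genes of interferon-gamma signalling none rose, none fell, and 3, Irf1 and Irf9 among them, had an unadjusted p under 0.05 in edgeR (0 were called with DESeq2 and 0 with limma-voom). Irf1 stood at 73.4, 71.9 and 73.7 normalised CPM in the controls, at 156 in DAF-TM library 1 and at 66.1 in DAF-TM library 2. The controls were level, library 1 was about double them and library 2 below them, and Irf1 did not pass (log2 fold change 0.60, SE 0.22, adjusted p = 0.67). Leaving out DAF-TM library 1 gave -0.15, and leaving out library 2 gave 1.09 (adjusted p = 7.0e-05). Irf9, a transcription factor of type I interferon signalling, stood at 54.9, 46.7 and 43.0 in the controls and at 84.1 and 60.2, with no overlap (log2 fold change 0.58, SE 0.17, adjusted p = 0.104).

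The ligand, receptor and kinases did not pass. Ifng had 2, 12 and 5 counts in the controls and 5 and 20 in DAF-TM libraries 1 and 2, too few to resolve a change, and it was higher in library 2 than in library 1. Ifngr1 stood at 170 to 223 normalised CPM in the controls and at 194 and 152, and Ifngr2 at 32.9 to 44.2 and at 42.7 and 43.9. Jak1 had a log2 fold change of 0.05 (SE 0.17) and Jak2 one of -0.27 (SE 0.17). Irf8, a factor of B and myeloid cells that also acts with Irf1, was at -0.09 (SE 0.17), and Socs1, the feedback inhibitor of the Jak kinases, at -0.16 (SE 0.19).

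Among other genes induced by interferon-gamma, only the chemokine gene Ccl5 passed. Of 26 such genes Ccl5 rose, none fell and 25 did not pass, with 13 positive and a median log2 fold change of 0.00. At an unadjusted p under 0.05 were 4, all higher, Ccl5, Cxcl10, Nlrc5 and Cd274. Cxcl10, a chemokine that draws T cells, stood at 1.06, 0.849 and 2.46 normalised CPM in the controls, at 4.87 in DAF-TM library 1 and at 1.86 in library 2 (log2 fold change 1.26, SE 0.48, adjusted p = 0.552). Nlrc5, the class I regulator, had a log2 fold change of 0.34 (SE 0.17, adjusted p = 0.858). Ccl5 is a chemokine of natural killer and T cells, and stood at 4.03, 2.29 and 4.64 normalised CPM in the controls and at 18.8 and 9.81 in DAF-TM libraries 1 and 2 (log2 fold change 1.995, SE 0.31, adjusted p = 4.115e-07). Without DAF-TM library 1 its call was lost (log2 fold change 1.44, adjusted p = 0.272). The class I antigen processing genes Tap1 (0.02 ± 0.17, log2 fold change ± SE), Psmb8 (-0.16 ± 0.17) and B2m (0.20 ± 0.16) and the class II regulator Ciita (-0.13 ± 0.17) did not pass. Cd274, which encodes PD-L1, had the profile of the IRG members, with 13.6, 13.2 and 12.3 in the controls and 25.0 and 12.7 in DAF-TM libraries 1 and 2, and did not pass (adjusted p = 0.754).

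Type I interferon genes were read as a second set of interferon targets. Of 20 genes 1 rose and none fell, the RNA sensor Ddx58 (log2 fold change 0.84, SE 0.18, adjusted p = 0.00295). It was called neither without DAF-TM library 1 (0.539) or control library 1 (0.074), nor with DESeq2 (0.1285) or limma-voom (0.0627). The median difference from the control mean, in log2(normalised CPM + 0.5), was 0.44 in DAF-TM library 1 and 0.38 in library 2 for these genes, and 0.78 and -0.06 for the 9 members. Of the type I genes 13 lie between 1 and 10 normalised CPM, where the medians over all genes tested are 0.00 and 0.39, and 7 between 10 and 100, where they are 0.02 and -0.11. Of the members 3 lie in the lower and 6 in the higher band. The difference between the lists was not tested. Partners of the GTPases, 20 genes of LC3 and GABARAP conjugation, ubiquitin adaptors and prenylation, had 0 calls in edgeR (0 also at an unadjusted p under 0.05, 0 with DESeq2 and 0 with limma-voom) and a median log2 fold change of -0.08. Of 10 inflammasome genes none passed (2 at an unadjusted p under 0.05; 0 with DESeq2 and 0 with limma-voom).

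Markers of other cell types also differed between the libraries. The 15 natural killer cell markers summed to 44.5, 49.4 and 64.4 normalised CPM in the controls, to 169 in DAF-TM library 1 and to 101 in library 2. Of 14 tested 9 rose and none fell, and 1 marker, Klra8, was at 0 in all libraries. Ccl5, counted above with the interferon-gamma targets, is among the 9. With DESeq2 3 were called and with limma-voom 5. The 16 macrophage and monocyte markers, of which 4 rose and none fell, had a median log2 fold change of 0.65, and 9 of 16 had no overlap with DAF-TM higher. Their sum was 174, 109 and 142 in the controls and 232 and 136 with DAF-TM, a large part of it from Lyz2, which had a log2 fold change of -0.65 (SE 0.33). The 16 T cell markers, of which 2 rose and none fell, had a median log2 fold change of 0.77, and 11 of 16 had no overlap with DAF-TM higher. Their sum was 307 to 334 in the controls and 314 and 327 with DAF-TM, most of it from Lck. Lck had a log2 fold change of -0.26 (SE 0.17). Between 1 and 10 normalised CPM lie 14 of the 16 T cell and 12 of the 16 macrophage and monocyte markers. Of all genes tested in that band 75.11% were positive, with a median log2 fold change of 0.23. There 17.51% had no overlap with DAF-TM higher, against 11.3% over all genes tested. No neutrophil marker passed in edgeR (3 of 11 at an unadjusted p under 0.05; 0 with DESeq2 and 4 with limma-voom), with sums of 94.2, 88.3 and 274 in the controls and of 34.4 and 87.3. The 14 germinal centre B cell markers had 0 calls in edgeR (2 at an unadjusted p under 0.05; 0 with DESeq2 and 0 with limma-voom), with sums of 13900 to 16500 in the controls and of 14100 and 12800. Of the 12 dendritic cell markers 1 rose and none fell, and of 7 plasma cell markers 1 rose and none fell. DESeq2 called 2 macrophage, 1 T cell, 1 dendritic cell and 0 plasma cell markers, and limma-voom 4, 1, 1 and 0. Without DAF-TM library 1 no marker of any of these lists was called in edgeR, natural killer cell markers included. The part of other cell types in the member values was not tested.

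**Figure D5:**
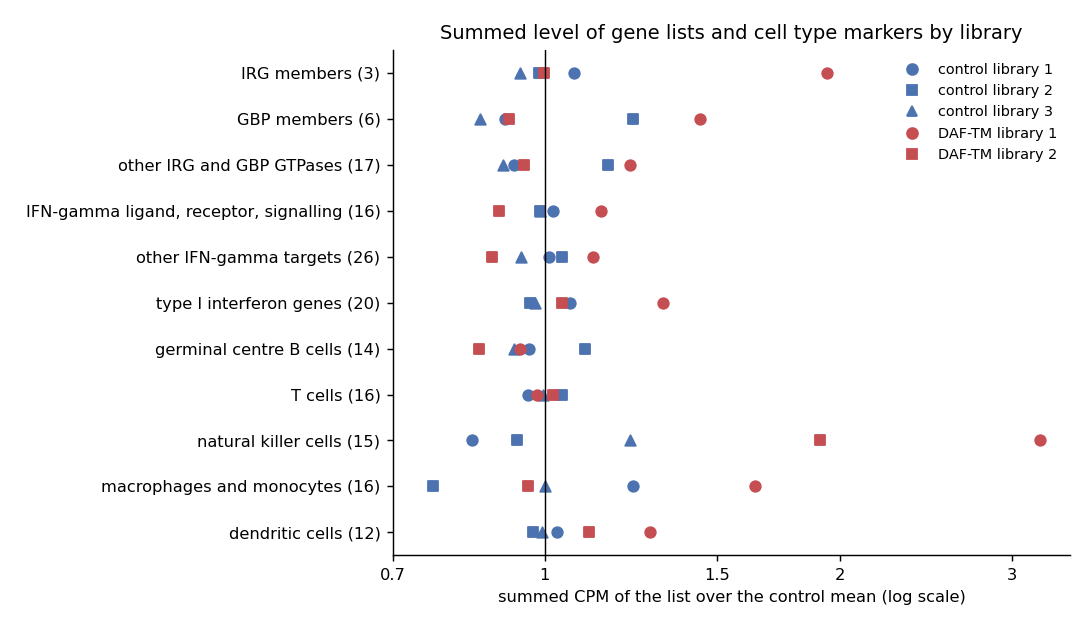
Summed normalised CPM of each list (number of genes in brackets) in every library, divided by the mean of the 3 controls, on a log axis. DAF-TM library 1 stands at 1.94 for the IRG members, 1.44 for the GBP members and 3.2 for natural killer cell markers, and DAF-TM library 2 at 0.997, 0.919 and 1.91.

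The genes most like the members were found by distance between centred profiles over the 5 libraries, in log2(normalised CPM + 0.5), among 9040 genes of at least 10 normalised CPM outside both families. The nearest 5 were the nonclassical class I gene H2-T10 (distance 0.0829 from the members' mean profile), the pseudogene Tmem181b-ps (0.11), the membrane protein gene Emp3 (0.139), the transcription factor gene Usf2 (0.148) and Arap2 (0.155). H2-T10 stood at 14.8, 15.4 and 15.006 in the controls and at 25.3 and 15.2 in DAF-TM libraries 1 and 2. None of the 5 passed the test. The members themselves lay at 0.18 (Igtp) to 0.817 (Gbp7) from their mean profile.

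Genes beside the clusters did not pass. The nearest tested genes outside the listed IRG and GBP genes were taken on each side. These were Pdlim5 and Gtf2b for the chromosome 3 cluster and Abcg3 and Lrrc8b for Gbp4 and Gbp6. For Igtp and Irgm2 they were Mrpl22 and Zfp692, and for Irgm1 Trim7 and Gm12185. Whether Gm12185 is itself an IRG gene was not checked. The log2 fold changes of these neighbours ran from -0.25 (Gtf2b) to 0.45 (Gm12185), and none of the 8 passed. Trim7, on the side of Irgm1 where its transcript ends, stood at 41.5, 38.7 and 40.4 normalised CPM in the controls and at 46.6 and 33.6.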

How the data were processed

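RNA was measured in 6 sorted samples, 3 per genotype, with 10 ng of total RNA each and SMART-Seq v4 oligo-dT libraries, per the labels' protocols. The tools bcl2fastq, HISAT2 and featureCounts are named in the submitters' processing notes, and per the file headers the build was mm10. No source used here gives the annotation, strand or multi-mapping settings. The deposited values are whole read counts by symbol. Identical DAF-TM columns were used once, so p-values rest on 3 and 2 libraries, which may differ technically. The test was that of edgeR 4.0.16 under R 4.3.3 (limma 3.58.1), with filterByExpr, TMM factors, robust glmQLFit and two-sided glmQLFTest, Benjamini-Hochberg adjusted at 0.05. All adjusted p-values are from it unless another tool is named. SE is the log2 fold change over the root of F. For most genes SE and p rest on variance shared across genes (median prior degrees of freedom 1153, residual 3). They do not measure the spread of a gene's own libraries. The fit was tested on simulated data with known changes. These data lacked the shift of low genes seen in DAF-TM library 2. It called 7 of 50 genes changed 1.5-fold, 29 of 50 changed 2-fold and 50 of 50 changed 4-fold. Of its 143 calls 7 were false, a share that need not hold for the real libraries. A gene that did not pass is therefore not shown to be unchanged. Lengths and 100-base stretches came from GENCODE M21, positions and promoters from RefSeq GRCm38.p6.

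Members and lists were chosen with earlier results of these data known. Named were all members, the called genes of a list (up to 6, by lowest p), a fixed set of pathway and family genes and the 5 nearest profiles. Irf9, Cxcl10, Nlrc5, Cd274, Tap1, Psmb8, B2m, Ciita, the neighbouring genes and the marker genes Bcl6, Lck, Lyz2 and Klra8 were chosen after their values were seen. Some listed genes are not reported here by name. Alternatives were RLE and upper-quartile factors, 2 count filters, DESeq2 1.42.0, limma-voom, a replicate block and leaving out each library.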

Additional observations from a re-analysis of the deposited data

How the results depend on the processing

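Of the 9 members 1, Irgm1, was called in the 5-library edgeR fit, and 0 with DESeq2 and with limma-voom; leaving out 1 library gave 0 to 1. Among the other listed genes outside the cell type markers 3 were called, Tgtp2, Ccl5 and Ddx58, against 1 with DESeq2 and 1 with limma-voom, and 1 to 6 with 1 library left out. Over all genes 77 were called, 70 higher and 7 lower. Upper-quartile factors gave 39, 39 and 0, DESeq2 32, 32 and 0, and limma-voom 51, of which 44 were higher. RLE factors gave 11 lower and no low-count filter 11 lower. Leaving out 1 library gave 14 to 118 calls, 12 to 107 higher and 2 to 16 lower. Upper-quartile factors moved the median log2 fold change of all genes from 0.03 to 0.10.

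Without DAF-TM library 1 the sign turned for Irgm2 (-0.29), Igtp (-0.092), Gbp2 (-0.35), Gbp4 (-0.36) and Gbp6 (-0.10), and the highest values with 1 library left out, all without DAF-TM library 2, were 0.68, 0.79, 0.71, 0.485 and 1.12. The cause was not tested. Equal replicate numbers are not tied to a litter or day in the labels. Deviations from the group means correlated at -0.117 for number 1 and -0.255 for number 2. With 2 DAF-TM libraries their deviations mirror each other, so the unlike pairs of libraries 1 and 2 stood at 0.117 and 0.255. These values cannot decide whether equal numbers are paired. With the replicate number as a block 61 genes were called, 45 higher and 16 lower, Irgm1 kept its call (adjusted p = 0.0463) and Gbp4 turned to -0.026. At 11 to 35 counts per library, as for Gbp6, depth limits what can be resolved.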
